A study of Mus musculus with 6 samples.

Results

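A set of 10 genes of sterol export and cholesterol trafficking was followed in mouse liver, namely *Abcg5*, *Abcg8*, *Abca1*, *Abcg1*, *Scarb1*, *Lcat*, *Pltp*, *Npc1*, *Npc2* and *Soat2*. They were chosen by gene symbol, and all 10 were found among the 24421 genes of the deposited table. Hepatic mRNA was sequenced from 3 wild-type (WT) mice and 3 heterozygous PAI-1 deficient (Pai-1+/-) mice of the C57BL/6 strain, 21 weeks old by the labels, with free access to a standard chow (SC) diet. The study itself gives a slightly younger age than the labels. It describes male mice with littermate WT controls, and its methods give the heterozygotes as bred from Pai-1-/- and WT parents. The study asked whether lower PAI-1 alters hepatic expression of lipid genes. The levels below are the authors' mean over all libraries, both genotypes together. Levels by genotype and values per mouse were not analysed here, since the count columns carry animal numbers that occur in none of the sample labels, and the fold changes and p-values of the authors' own comparison were not used. No SD, total count per library or test between genotypes is therefore given, and a mean can hold genotypes at different levels.

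The liver disposes of cholesterol by several routes that these genes serve. Excess sterol is pumped into bile by the heterodimer of ABCG5 and ABCG8, while ABCA1 and ABCG1 pass cholesterol to high density lipoproteins (HDL). In plasma, LCAT esterifies the cholesterol of HDL and PLTP moves phospholipids between lipoproteins, and SCARB1 takes up cholesteryl esters from HDL at the hepatocyte surface. Inside the cell, NPC2 and NPC1 hand cholesterol from the lysosome lumen to its membrane and out, and SOAT2 esterifies cholesterol in the endoplasmic reticulum for storage or secretion.

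Each level is a mean normalized count, that is, reads per gene divided by a library size factor and averaged by the authors. To compare genes, it was divided by the length of the longest annotated transcript and is given per kb. Of the 12971 genes with a mean normalized count above 10, 12499 matched 1 gene model, and their median was 129 mean normalized counts per kb. All 10 sterol genes passed this minimum, and 9 of them lay above that median. The members had a median of 879 mean normalized counts per kb, and the median of their percentiles among all genes was 86.9. Together they took 0.151% of the summed mean normalized counts, and *Lcat* alone made up 31.6% of the members' sum.

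**Figure D1:**
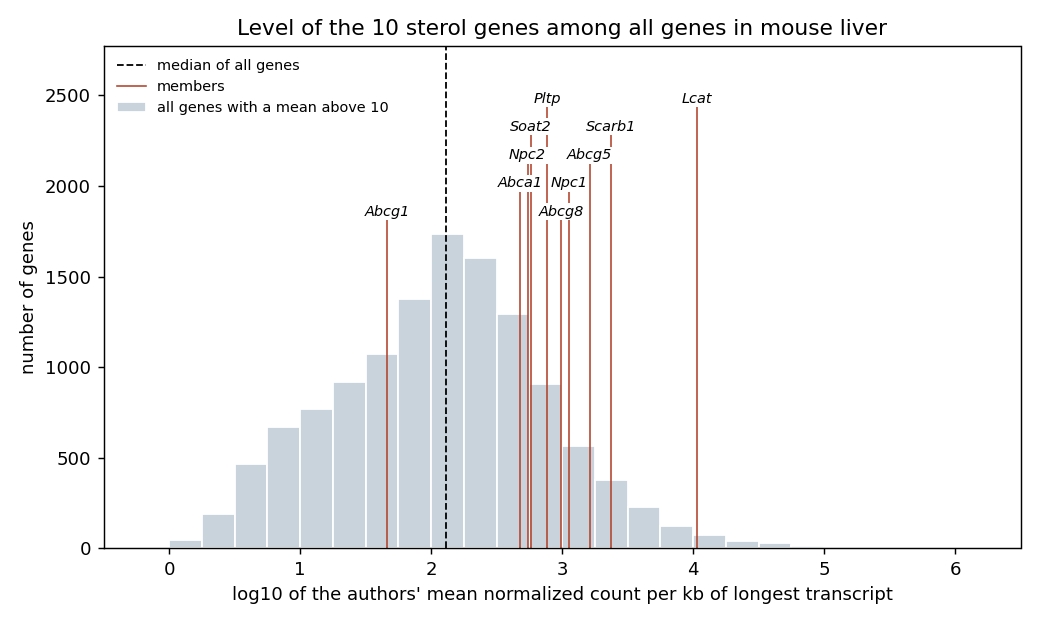
Histogram of the authors' mean normalized count per kb of longest transcript (x axis, log10) for 12499 genes (y axis, number of genes), with a red line for each of the 10 sterol genes and a dashed line at the median of all genes. *Abcg1* lies left of the median at 46.3 mean normalized counts per kb, *Lcat* far to the right at 10700, and the other 8 between 477 and 2353.

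*Abcg5* and *Abcg8*, whose proteins form 1 obligate pump for cholesterol and plant sterols, lie head to head on chromosome 17 of mm10, *Abcg5* at 84658234 to 84683011 on the minus strand and *Abcg8* at 84676302 to 84700333 on the plus strand. The stretch between their RefSeq start sites is only 109 bases long, with a GC content of 45.9%, and is shown because both subunits begin at its ends. It holds no annotated exon and is crossed by the first intron of an *Abcg8* transcript that starts further upstream, inside *Abcg5*. It is printed from RefSeq (GRCm38.p6, chr17:84683012-84683120, plus strand), with *Abcg5* starting to its left and *Abcg8* to its right. Capitals mark matches to the TATA box (TATAAA) and to the core of GATA factor sites (GATAA), all of which read in reverse complement on this strand.

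*Abcg5* to *Abcg8*: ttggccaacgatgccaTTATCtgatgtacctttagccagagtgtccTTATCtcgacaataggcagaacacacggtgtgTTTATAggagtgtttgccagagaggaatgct

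The single TATAAA lies on the *Abcg5* strand, its first base at position -84 from the *Abcg5* start, and at -31 when counted along the *Abcg8* strand. TATAAA was present in 13.6% of 32851 promoter windows of 300 bases, and GATAA in 25.4%, on either strand. Such matches describe letters and show no binding.

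*Abcg5* had a mean normalized count of 3822 and *Abcg8* of 3615. Before any division by length, the means of the pair thus lay within 1.06-fold of each other. Per kb of longest transcript, *Abcg5* stood at 1626 and *Abcg8* at 986 mean normalized counts, a ratio of 1.65, because the longest *Abcg8* transcript has 3667 bases against 2351 for *Abcg5*. With the median length of the coding transcripts the ratio was 1.29. *Abcg5* stood at percentile 92.2 of all genes and *Abcg8* at 88.2. The pair shares 82 exonic bases on opposite strands, 3.02% of the exonic bases of *Abcg5* and 2.19% of those of *Abcg8*. They are the first exon of the *Abcg8* transcript that starts inside *Abcg5*. Whether reads were counted by strand is not given in the sources used here, so reads of these bases could have gone to either gene.

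The transporters of cholesterol efflux to HDL were far apart in level. *Abca1*, which loads cholesterol and phospholipid onto lipid-poor apolipoprotein A-I, had a mean normalized count of 4891. *Abcg1*, which passes cholesterol to mature HDL, had 270. *Abca1* is encoded by a transcript of 10262 bases in 50 exons (chromosome 4, 53030787 to 53159895, minus strand), the longest of the set. Its level per kb was therefore only 477 mean normalized counts, the ninth of the 10, although its count was the fourth highest. *Abcg1* (chromosome 17, 31057675 to 31117988, plus strand) had 46.3 mean normalized counts per kb, at percentile 30.0 of all genes, and was the one member below the median. The *Abca1* level per kb was 10.3 times that of *Abcg1* with the longest transcripts, and 2.02 times with the median coding transcripts, since most *Abcg1* coding models are short. In that setting *Abcg1* stood at percentile 53.6, whereas among genes with a mean normalized count above 100 it stood at 9.97.

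Upstream of the *Abca1* start, the 250 bases are shown because *Abca1* is the textbook target of the sterol-sensing LXR receptors, which bind direct repeats of AGGTCA. They come from RefSeq (GRCm38.p6, chr4:53159896-53160145, minus strand), hold no annotated exon and end 1 base before the start. Capitals mark GGGCGG, the motif of Sp1 sites, then CACGTG, known as the E box, and lastly the TATA box motif TATAAA.

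*Abca1*: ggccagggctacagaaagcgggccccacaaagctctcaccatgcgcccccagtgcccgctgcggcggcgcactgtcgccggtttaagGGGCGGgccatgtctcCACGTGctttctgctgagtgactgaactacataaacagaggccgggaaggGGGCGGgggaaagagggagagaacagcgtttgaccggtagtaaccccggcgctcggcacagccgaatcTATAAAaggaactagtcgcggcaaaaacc

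TATAAA began at position -29, CACGTG at -147 and GGGCGG at -163 and -97. Over all promoter windows, CACGTG was found in 7.15% and GGGCGG in 35.7%. The letters AGGTCA, found in 16.3% of all windows, and the sterol regulatory element TCACNCCAC, found in 1.24%, were in none of the 7 windows of the 6 members that the promoter table holds, *Abcg5*, *Abcg8* (2 windows), *Abca1*, *Lcat*, *Pltp* and *Npc2*. These are exact searches of a short window and do not speak to more distant or degenerate sites. Repeats that differ from AGGTCA were not searched for over the windows. Read by eye, the *Abca1* stretch printed above holds, in lower case, tgaccg and taaccc with 4 bases between them. In reverse complement these letters are a direct repeat close to AGGTCA. Whether LXR binds there was not tested. CCAAT was in 5 of the 7 windows against 37.4% of all windows, TATAAA in 4, GATAA in 4 and GGGCGG in 3. The facing *Abcg5* and *Abcg8* windows overlap, so their matches are partly the same bases. GC content ranged from 52.3% to 65.0% in the 7 windows beside a median of 52.7% over all windows, and the ratio of observed to expected CpG was highest in *Abca1*, at 0.888.

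The enzyme and transfer protein that remodel HDL in plasma were both above the median of all genes. *Lcat* (chromosome 8, 105939551 to 105943382, minus strand) had a mean normalized count of 14359 on a transcript of 1342 bases. Its 10700 mean normalized counts per kb were the highest of the set, 83.0 times the median of all genes, and only 162 of 12499 genes stood higher. *Pltp* (chromosome 2, 164839518 to 164857711, minus strand) had a mean normalized count of 1720 and 773 per kb, at percentile 85.5. *Lcat* thus exceeded *Pltp* 13.8-fold per kb. *Pltp* shares 495 exonic bases, 19.3% of its merged exons, with *Ctsa* on the other strand, the gene of a lysosomal carboxypeptidase whose mean normalized count was 5275. The part of these shared bases in the *Pltp* value was not tested.

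*Scarb1*, the HDL receptor SR-BI (chromosome 5, 125277087 to 125341094, minus strand), had the second highest mean normalized count, 7279. Its level was 2353 per kb of longest transcript, which is a retained-intron model of 2 exons and 3093 bases. Over its longest coding transcript, of 2521 bases in 13 exons, the level was 2887 per kb. The value depended strongly on the gene model, from 856 per kb of merged exons to 4564 per kb of median coding transcript. The related lysosomal receptor *Scarb2*, which is no HDL receptor, had 737 mean normalized counts per kb.

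Both genes of lysosomal cholesterol export, in which loss of either causes Niemann-Pick type C disease, were well above the median. *Npc1* (chromosome 18, 12189692 to 12236400, minus strand), the membrane protein, had a mean normalized count of 6478 and 1125 per kb. *Npc2* (chromosome 12, 84754562 to 84773152, minus strand), the soluble carrier, had 1797 and 545 per kb. The *Npc1* level per kb was 2.07 times that of *Npc2*, and between 1.73 and 2.28 times with the other length definitions. The longest *Npc1* transcript is also a retained-intron model of 2 exons, and its longest coding transcript, of 5224 bases in 25 exons, gave 1240 mean normalized counts per kb. *Npc1* shares 511 exonic bases, 4.52% of its merged exons, with *Rmc1* on the other strand.

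*Soat2*, which encodes the acyltransferase that esterifies cholesterol in hepatocytes and enterocytes (chromosome 15, 102150526 to 102163469, plus strand), had a mean normalized count of 1274 and 577 per kb, at percentile 81.5. *Soat1*, the form used by macrophages and adrenal cells, had a mean normalized count of 91.6 and 10.9 per kb. The *Soat2* level was 52.7 times that of *Soat1* per kb of longest transcript and 11.8 times with the median coding transcripts.

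**Figure D2:**
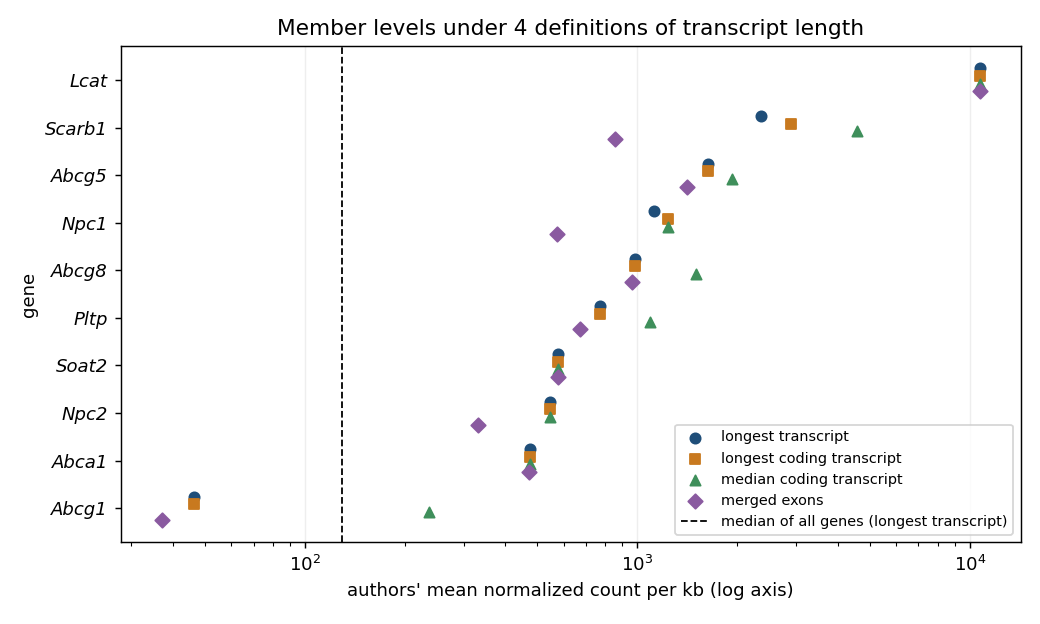
Level of each of the 10 sterol genes (rows) as the authors' mean normalized count per kb (x axis, log scale) under 4 definitions of transcript length, with a dashed line at the median of all genes for the longest transcript. *Lcat* keeps 10700 under each definition, whereas *Scarb1* moves between 856 and 4564 and *Abcg1* between 37.0 and 236.

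In order of the level per kb of longest transcript, the genes were *Lcat*, *Scarb1*, *Abcg5*, *Npc1*, *Abcg8*, *Pltp*, *Soat2*, *Npc2*, *Abca1* and *Abcg1*. The highest and the lowest differed 231-fold, and 45.2-fold with the median coding transcript, 289-fold with merged exons or 53.2-fold without division by length. Without values per library, no step in this order could be set against the spread between mice. The order was therefore compared over 5 scales, the 4 length definitions and the undivided mean. *Lcat* was first and *Abcg1* last on all 5. *Abcg8* stood above *Pltp*, and *Pltp* above *Soat2*, on all 5 as well. The order of *Scarb1* and *Abcg5* held on 4 of the 5 and was reversed with merged exons. That of *Abcg5* and *Npc1* also held on 4 and was reversed without division by length. The order of *Npc1* and *Abcg8*, and that of *Npc2* and *Abca1*, held on only 3 of the 5. *Soat2* and *Npc2*, with a ratio of 1.06 per kb of longest transcript, changed places when the mean was not divided by length.

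Other genes of sterol handling, a fixed list of 36, give these levels a scale. In the table, 35 of them were found, 33 had a mean normalized count above 10 and 28 lay above the median of all genes per kb. The list had a median of 697 mean normalized counts per kb, beside 879 for the 10 members and 129 for all genes. The apolipoproteins of HDL were far above the members that act on them, with *Apoe* at 329320, *Apoa1* at 242996 and *Apoa2* at 234530 mean normalized counts per kb. The sterol-sensing receptor *Nr1h3* (LXR alpha) stood at 1190 and its relative *Nr1h2* (LXR beta) at 647, and their partner *Rxra* at 3357. *Lipa*, the lysosomal lipase that frees the cholesterol exported by NPC1 and NPC2, stood at 2672. The bile acid enzymes that consume cholesterol, *Cyp7a1* and *Cyp27a1*, stood at 1765 and 8680. *Pdzk1*, the adaptor that holds SCARB1 at the membrane, had 697 mean normalized counts per kb.

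Relatives of the transporters ranged widely in level. *Npc1l1*, which absorbs sterol in the gut, had a mean normalized count of 8.14, and *Abcg4*, a brain relative of *Abcg1*, had 2.04. *Abca7* had 30.6 mean normalized counts per kb, below the median of all genes, while *Abcg2*, an exporter of drugs and urate, had 630.

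**Figure D3:**
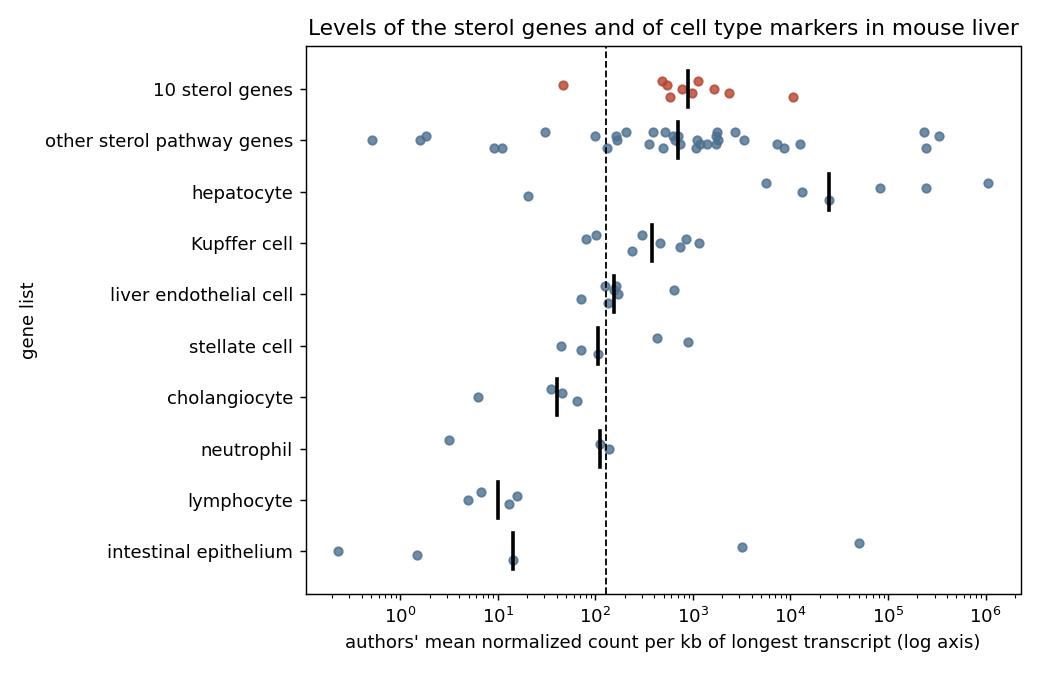
Each point is 1 gene, placed by the authors' mean normalized count per kb of longest transcript (x axis, log scale), for the 10 sterol genes in red and the comparison lists in blue (rows). Black bars are list medians and the dashed line is the median of all genes, and 9 of the 10 sterol genes lie to its right.

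The samples were checked against markers of liver cells. Of 8 hepatocyte genes, 7 were found, with a median of 24608 mean normalized counts per kb, led by *Alb* at 1059760. *Ass1*, a urea cycle enzyme of hepatocytes, was the exception, with a mean normalized count of 34.5. Median levels per kb were 380 for 8 Kupffer cell genes, 155 for 7 endothelial genes, 107 for 5 stellate cell genes, 40.3 for 4 cholangiocyte genes, 111 for 3 neutrophil genes and 9.92 for 4 lymphocyte genes. The neutrophil median is the level of *S100a8*, a mean normalized count of only 55.1 on a short transcript of 498 bases. Of the 3 neutrophil genes, 2 had a mean normalized count above 10. The 3 red cell genes *Hba-a1*, *Hbb-bs* and *Hbb-bt* were listed at 0. Whether these values and that of *Ass1* reflect RNA in the liver or how reads were assigned to genes was not tested. They are therefore not read as absence or low expression. Kupffer and endothelial cells also express *Abca1*, *Abcg1*, *Npc1* and *Npc2*, and the level of a gene in whole liver does not tell which cells hold its RNA. In such bulk tissue, fewer cells of a type and less RNA per cell cannot be told apart. *Abcg5*, *Abcg8* and *Soat2* are also genes of the intestinal epithelium. Of its 5 listed markers, *Lct*, *Sis* and *Vil1* had mean normalized counts of 1.42, 8.72 and 45.1. *Apoa4* and *Fabp2*, which liver shares, had 90539 and 3058.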

How the data were processed

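Hepatic mRNA libraries of 3 WT and 3 Pai-1+/- mice were made with KAPA mRNA HyperPrep kits and sequenced as single-end reads. The authors aligned them to mm10 with STAR and ran DESeq2 through the RNA Express application, and the submitters' processing notes also name HOMER. Versions, annotation and strand setting are not given in the sources used here. The signal used is 1 column of the authors' deposited table, the average, taken across the 6 libraries, of read counts scaled by library size factors. The other columns of that table, the authors' fold changes with errors, p-values and adjusted p-values, were not used. The other deposited table holds 6 columns of values per animal, which were not used because their headings match no sample label. The count test intended between genotypes, its alternatives and the depth per library were therefore not obtained, and n and SD are not given. The means summed to 30046000 over all genes.

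GENCODE M21 gave the gene models (GRCm38, the same assembly as mm10), and 96.4% of the genes with a mean above 10 matched 1 model by symbol. Levels were divided by the longest transcript, and alternatively by merged exons or by the median coding transcript. The longest coding transcript was added after the gene models were seen. Percentiles are the share of genes below a member. Promoter windows of 300 bases (250 before and 50 after the start) came from RefSeq, GRCm38.p6. *Abcg1*, *Scarb1*, *Npc1* and *Soat2* had no window there. The members, the lists and the markers were chosen with earlier results of these data known. Values of a few listed genes are not reported here. Small checks on made-up values covered the division by length, the percentile, the merging and overlap of exons, and the motif search. Python 3.11.15, NumPy 2.4.6, SciPy 1.17.1 and Matplotlib 3.10.9 were used. The genes named are the 10 members, members of the fixed pathway and marker lists, and genes that share exons with a member, which were chosen after the models were seen.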

Additional observations from a re-analysis of the deposited data

How the results depend on the processing

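No paired analysis was possible because the deposited count columns carry no sample label, so no test was run, and the fits with other normalizations, other tools or left-out mice were not run. Over the other settings, the number of members above the median of all genes was 9 or 10, and 5 when only the 6 members that share no exon with another gene were kept, which leaves fewer genes. The median percentile of the members, 86.9, was 85.9 with the longest coding transcript, 83.4 with the median coding transcript, 91.2 without division by length, 90.3 among all genes with a mean above 0, 82.7 among genes above 100 and 81.0 for the 6 members. Their median level, 879 mean normalized counts per kb, was 1166 with the median coding transcript, 623 with merged exons and 561 for the 6 members. The 231-fold range was 45.2-fold with the median coding transcript, 289-fold with merged exons and 53.2-fold without division by length. The largest shifts of 1 gene in either direction were those of *Abcg1*, up to percentile 53.6 with the median coding transcript and down to 9.97 among genes above 100. The spread between mice is not known for any of these values.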
